A study of Rattus norvegicus with 6 samples.

Results

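Genes that mark macrophages and monocytes were followed in synovial tissue of arthritic rats given triptolide or saline. The list holds 34 genes, each known for a role in these cells, and every probe whose gene name in the scanner files equalled a listed name was taken. Of the 34 genes, 30 had such a probe, 37 probes in all, and 29 were bright enough to test among the 25772 tested probes of 41012 on the array. Itgax, Stab1, Il34 and Cd5l had no probe of that name, so their levels were not analysed here. The scavenger receptor gene Marco was not well above background on any array.

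Synovial tissue came from the hind ankle joints of male rats aged 8 weeks. The triptolide group received 0.4 mg/kg of triptolide, a diterpenoid from the vine Tripterygium wilfordii, and the arthritis group received saline, each daily for 14 days. Both groups carried adjuvant arthritis, raised with 0.1 ml of Freund's complete adjuvant daily for 18 days, so both are arthritic and no healthy tissue was analysed here. Each group holds 3 samples, each on its own 1-colour array. Whether the 3 samples of a group are separate animals is not stated in the labels; p-values therefore reflect only the spread among samples, part of which may be technical.

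Macrophages are the phagocytes of the joint lining and of the inflamed synovium. Some settle in the tissue and clear debris through scavenger receptors, and others arrive as blood monocytes that carry integrins and activating Fc receptors. The growth factor Csf1 keeps both kinds alive through its receptor Csf1r, and the transcription factor PU.1, the product of Spi1, drives many of their genes. In arthritic joints they are a major source of inflammatory cytokines and of tissue-degrading enzymes.

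Levels are log2 intensity relative to the 75th percentile of the same array, so a level of 0 lies at that percentile, and a difference is triptolide minus arthritis on the log2 scale. Of the non-control spots, 59.6% to 65.1% per array were well above background and none was saturated. All 29 tested members were well above background on all 6 arrays. Triptolide 1 shared slide 1 with the 3 arthritis arrays, and triptolide 2 and 3 were on slide 2, so slide and group are largely confounded. All 14 synovial fibroblast markers were bright enough to test. Prg4, which encodes the joint lubricant of lining fibroblasts, stood at 6.55, 3.52 and 6.74 with triptolide, against 6.81, 4.27 and 7.37 with arthritis (chosen after its values were seen). The samples also differed in muscle. The mean of 13 tested skeletal muscle genes of 14, each centred on its own mean over the 6 arrays, was 1.13, -3.14 and 2.02 on triptolide arrays 1 to 3, against -4.13, 8.33 and -4.21 on arthritis arrays 1 to 3. Arthritis 2 was the high one. Since this is bulk tissue, fewer cells of a type and less RNA per cell cannot be told apart.

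No macrophage gene passed the test between triptolide and arthritis, and most differences were small beside the spread of the replicates. With limma and Benjamini-Hochberg adjustment over all 25772 probes, 0 of the 29 members passed an adjusted p of 0.05 (lowest 0.994), and 0 had an unadjusted p under 0.05. The unadjusted count was 5 without triptolide 2 (Fcgr1a, Fcgr2a, Fcgr3a, Aif1 and Ms4a7), where 1656 of all 25772 probes were under 0.05. It was 4 without both replicate 2 arrays, where 2879 probes were under 0.05. Whether the members exceeded the share of all probes in these settings was not tested. With every array kept, 0 of all probes passed as well, which is 0% of them (lowest adjusted p = 0.344). In the same fit 833 probes, or 3.23%, had an unadjusted p under 0.05. In none of the 29 members did the 3 triptolide levels lie clear of the 3 arthritis levels, whereas 8.64% of all tested probes had groups that did not overlap, 4.77% with triptolide above and 3.87% with triptolide below. The difference was above 0 for 22 members and below 0 for 7, and above 0 for 53.9% of all probes. Without arthritis 2 it was above 0 for 12 members and below for 17, and without triptolide 3 above for 15 and below for 14. The median member differed by 0.15, beside 0.023 over all tested probes. Members ranged from -0.67 for F13a1 to 0.68 for Fcgr3a, and 28 of the 29 differed by less than their own pooled SD between replicates, as did 74.5% of all probes.

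**Figure D1:**
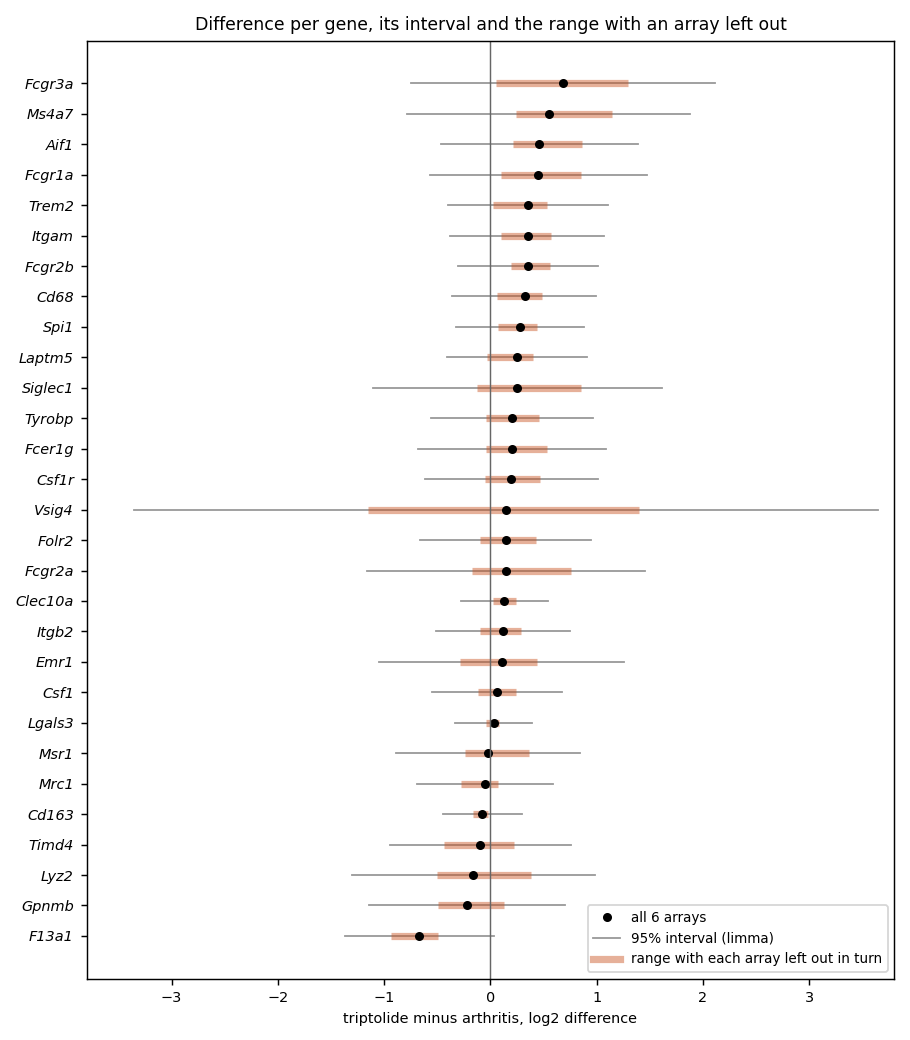
Log2 difference, triptolide minus arthritis, of each of the 29 tested genes (points), with the 95% interval from limma (thin lines) and the range with each array left out in turn (thick bars). Every interval includes 0, and that of F13a1 ends nearest to it, at 0.034.

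The members varied together from array to array. The median of the members, each centred on its own mean over the 6 arrays, was 0.27, -0.44 and 0.34 on triptolide arrays 1 to 3, against 0.08, -0.56 and 0.22 on arthritis arrays 1 to 3. Replicate 2 was thus the low one in both groups. For 24 of the 29 members triptolide 2 and arthritis 2 were the lowest pair of the 6 arrays, as they were for 22.7% of all tested probes. Replicate 2 was the lowest of its own group on both sides for 26 members, against 27.9% of probes. Triptolide 3 was the highest array for 16 members and triptolide 1 for 10, against 14.5% and 18.4% of probes. Arthritis 2 was the lowest array for 18 members and triptolide 2 for 8, against 37.3% and 24% of probes. The pooled SD of a member had a median of 0.47, against 0.28 over all tested probes.

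**Figure D2:**
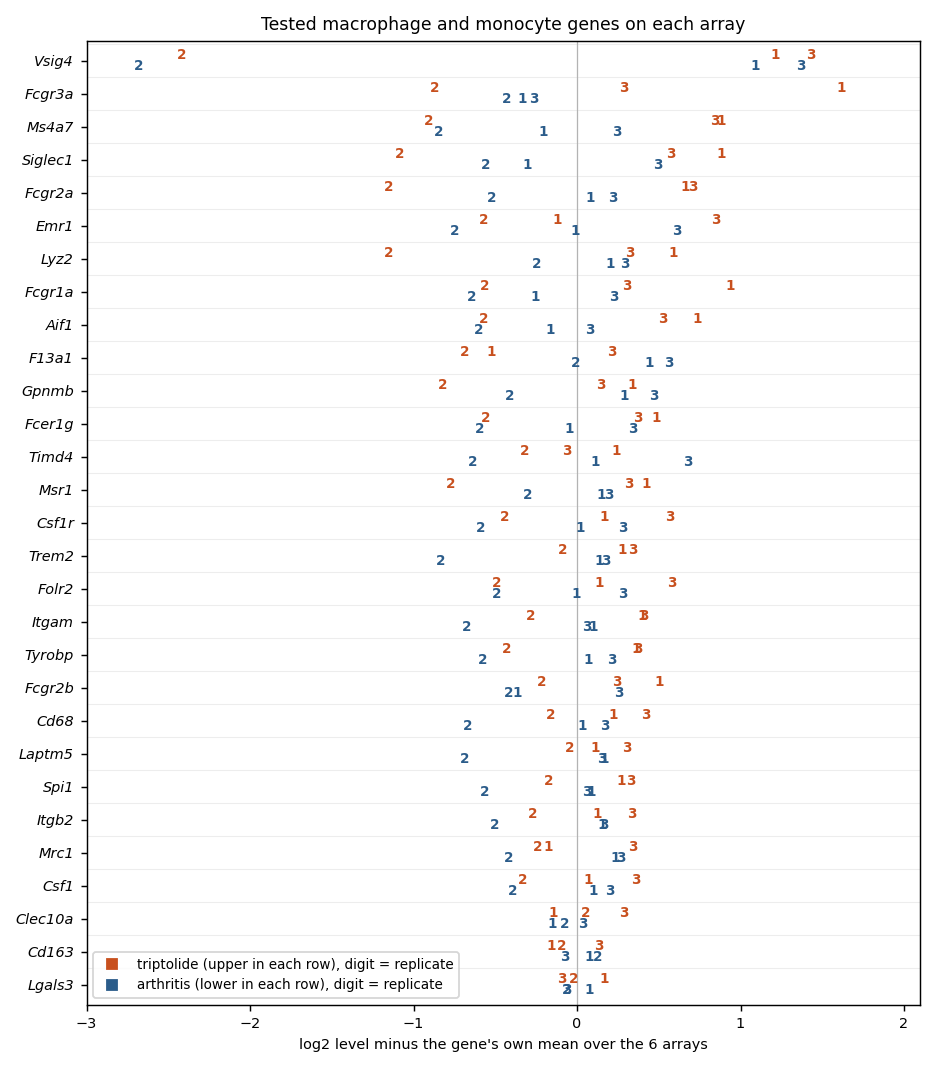
Level of each tested gene on each array as log2 minus the gene's own mean over the 6 arrays, with triptolide as the upper digits in a row and arthritis as the lower digits, and the digit giving the replicate. Genes run down the page by their spread from Vsig4 to Lgals3, and the digit 2 of both groups lies to the left in most rows.

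Lymphocyte genes were low on the same arrays. Of 17 T and NK cell genes 16 were tested, and their mean centred level was 0.46, -0.97 and 0.61 with triptolide, against 0.21, -0.68 and 0.37 with arthritis. For 14 of these 16 genes triptolide 2 and arthritis 2 were again the lowest pair, and log2 of their summed linear levels ran from 3.79 to 5.24 with triptolide, against 3.92 to 5.12 with arthritis. Low values on these arrays were not limited to leukocyte genes. The 14 synovial fibroblast genes stood at 0.02, -0.34 and 0.11 with triptolide, against 0.31, -0.57 and 0.47 with arthritis. For 8 of these 14 genes triptolide 2 and arthritis 2 were the lowest pair. Genes of some other tissues were high on one or the other of these arrays. Nerve and Schwann cell genes, 8 of 10 tested, stood at -0.87, 2.24 and -1.14 with triptolide, against 0.18, -0.60 and 0.20 with arthritis, and triptolide 2 was the highest array. Their summed level ran from 5.82 to 8.03 with triptolide, against 5.83 to 6.55 with arthritis. Arthritis 2 was the array with the high muscle mean given above, and the summed muscle level ran from 2.12 to 6.91 with triptolide, against 2.26 to 12.72 with arthritis. The part of these tissues in the low macrophage levels was not tested.

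The growth factor axis of macrophages had 3 tested genes, and all 3 differed by less than their replicate spread. Csf1, the growth factor itself, had levels of 3.03, 2.63 and 3.32 with triptolide, against 3.06, 2.57 and 3.16 with arthritis. The groups overlapped over nearly their whole range, with a difference of 0.061 (SE 0.25, limma adjusted p = 0.995). A second Csf1 probe differed by 0.14 (SE 0.21). Csf1r, the receptor, had levels of 1.80, 1.19 and 2.20 with triptolide, against 1.65, 1.04 and 1.91 with arthritis. Each group had its low value in replicate 2, and the difference was 0.19 (SE 0.34). Another Csf1r probe was well above background on triptolide 1 alone and was not tested. Spi1 had levels of 0.65, 0.21 and 0.71 with triptolide, against 0.47, -0.18 and 0.44 with arthritis. Its difference was 0.28 (SE 0.25, adjusted p = 0.994), and triptolide 2 lay within the range of arthritis.

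Tyrobp and Fcer1g encode the small adaptors that carry immunoreceptor tyrosine-based activation motifs (ITAMs), and Trem2 is a lipid-sensing receptor that signals through Tyrobp. Tyrobp had levels of 8.51, 7.72 and 8.52 with triptolide, against 8.22, 7.57 and 8.36 with arthritis. Triptolide 1 and 3 lay above all 3 arthritis arrays and triptolide 2 below arthritis 1 and 3, giving a difference of 0.20 (SE 0.31). A second Tyrobp probe, which by its coordinates reads the opposite strand, differed by 0.062 (SE 0.22). Fcer1g, the common gamma chain of activating Fc receptors, had levels of 7.68, 6.64 and 7.57 with triptolide, against 7.15, 6.60 and 7.54 with arthritis, a difference of 0.20 (SE 0.37). Trem2 had levels of 7.76, 7.40 and 7.83 with triptolide, against 7.62, 6.65 and 7.66 with arthritis. Arthritis 2 was the lowest of its 6 values, and the difference was 0.35 (SE 0.31), or 0.024 without that array.

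The Fc gamma receptors, which bind antibody-coated targets, had the highest median difference of any group of roles, 0.40 over 4 genes. Fcgr2a and Fcgr3a sit near each other on chromosome 13 in related sequence, so their probes are shown to let them be told apart. On rn4, the build of the file headers, the Fcgr2a probe lies at chr13:86905963-86906022 in descending order and the Fcgr3a probe at chr13:86877181-86877240 in ascending order. Exon and UTR positions of the probes were not analysed here.
Fcgr2a: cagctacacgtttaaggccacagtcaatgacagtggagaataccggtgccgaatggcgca
Fcgr3a: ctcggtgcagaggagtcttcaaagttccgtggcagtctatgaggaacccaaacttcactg
The longest run of bases that these probes share is 6, and each shares at most 5 with the probe of Fcgr2b. These runs compare probe with probe only. Whether a probe also matches the transcript of another Fc gamma receptor was not tested. The names are those of the array: in the RefSeq table the transcript behind Fcgr2a carries Fcgr3 and Fcgr3a among its older names, and that behind Fcgr3a carries Fcgr4.

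Fcgr3a had the largest positive difference of all tested members. It had levels of 3.74, 1.25 and 2.41 with triptolide, against 1.79, 1.69 and 1.86 with arthritis. The arthritis values were close together and the triptolide values lay on both sides of them, 1 below and 2 above. The difference of 0.68 (1.61-fold, SE 0.59, adjusted p = 0.994) was 0.048 without triptolide 1 and 1.29 without triptolide 2. Within slide 1, where triptolide 1 is the only triptolide array, it was 1.96. Fcgr1a, the high-affinity receptor, had levels of 6.87, 5.37 and 6.24 with triptolide, against 5.68, 5.29 and 6.16 with arthritis. Triptolide 1 and 3 were above all arthritis arrays, and the difference was 0.45 (SE 0.42), with 0.33 (SE 0.41) on a second probe. Fcgr2b, the inhibitory receptor, had levels of 4.68, 3.96 and 4.42 with triptolide, against 3.81, 3.76 and 4.43 with arthritis. It was 1 of the 5 members in which replicate 2 was not the lowest pair, and it differed by 0.35 (SE 0.27). Fcgr2a had levels of 4.80, 2.99 and 4.85 with triptolide, against 4.22, 3.62 and 4.36 with arthritis, with triptolide 2 the lowest array. Its difference was 0.15 (SE 0.54).

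Itgam and Itgb2 encode the chains of the complement receptor Mac-1, an integrin of monocytes, macrophages and neutrophils. Itgam had levels of 4.24, 3.56 and 4.25 with triptolide, against 3.94, 3.17 and 3.90 with arthritis. Replicate by replicate the triptolide values were the higher ones, but same-numbered samples were not treated as pairs. The difference was 0.35 (SE 0.30, adjusted p = 0.994). Itgb2, the beta chain shared with other leukocyte integrins, had levels of 5.18, 4.78 and 5.39 with triptolide, against 5.21, 4.55 and 5.22 with arthritis, a difference of 0.12 (SE 0.26). Since neutrophils carry Mac-1 as well, their markers belong beside it. Of all tested probes 53.9% had a difference above 0. Of 15 neutrophil genes 14 had a probe and 9 were tested, 8 of them above 0, with a median of 0.44. Among those above 0, Mpo was well above background on 3 triptolide arrays and 1 arthritis array, and Csf3r on 2 and 1. Both were thus tested mainly through their triptolide arrays. The mean centred level of the 9 genes was 0.54, -0.29 and 0.22 with triptolide, against -0.25, -0.39 and 0.17 with arthritis. Log2 of their summed linear levels ran from 2.45 to 3.06 with triptolide, against 2.35 to 2.64 with arthritis. No neutrophil gene passed, and their part in the integrin levels was not tested.

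Among scavenger and uptake receptors 9 genes were tested, 5 above 0 and 4 below, with a median of 0.13. Vsig4, a complement receptor of resident macrophages, had the widest spread of any member. Its probe spans 487 bases of rn4 at chrX:83882671-83883157 in descending order, more than its own 60 bases.
Vsig4: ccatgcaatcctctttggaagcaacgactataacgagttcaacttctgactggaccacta
Vsig4 had levels of 0.14, -3.49 and 0.36 with triptolide, against 0.019, -3.75 and 0.30 with arthritis. The 4 other arrays lay within a narrow band, and triptolide 2 and arthritis 2 were far below it. The pooled SD was 2.21, larger than that of 99.1% of tested probes, and the difference was 0.15 (SE 1.45). It was -1.15 without arthritis 2 and 1.40 without triptolide 2.

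The remaining uptake receptors had smaller spreads. Cd163, the haemoglobin scavenger receptor, had levels of -1.55, -1.49 and -1.26 with triptolide, against -1.32, -1.27 and -1.47 with arthritis. It had the second smallest spread among the members, with no low replicate 2, a pooled SD of 0.13 and a difference of -0.076 (SE 0.15). A second Cd163 probe differed by -0.022 (SE 0.14). The direction turned with the processing, to 0.167 with normexp background correction and 0.07 with array weights. Mrc1, the mannose receptor, had levels of 3.97, 3.91 and 4.49 with triptolide, against 4.38, 3.73 and 4.42 with arthritis, a difference of -0.053 (SE 0.26). Folr2, a folate receptor of tissue macrophages, had levels of 6.05, 5.42 and 6.49 with triptolide, against 5.91, 5.42 and 6.19 with arthritis, a difference of 0.15 (SE 0.33). Timd4, a receptor for phosphatidylserine on dying cells, had levels of 0.19, -0.37 and -0.11 with triptolide, against 0.059, -0.69 and 0.63 with arthritis. Its highest and lowest values were both in arthritis, and the difference was -0.097 (SE 0.35).

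Cd68, a lysosomal protein used to count synovial macrophages, had levels of 7.77, 7.39 and 7.97 with triptolide, against 7.58, 6.88 and 7.72 with arthritis. Only arthritis 2 stood below the triptolide range, and the difference of 0.32 (1.24-fold, SE 0.28) was 0.058 without it. Siglec1, a sialic acid receptor, had levels of -1.46, -3.43 and -1.77 with triptolide, against -2.65, -2.90 and -1.85 with arthritis, a difference of 0.25 (SE 0.56). Msr1, a scavenger receptor for modified lipoproteins, had levels of 1.69, 0.49 and 1.58 with triptolide, against 1.41, 0.96 and 1.46 with arthritis, a difference of -0.023 (SE 0.36). Triptolide 2 was the lowest array for both. Clec10a, a galactose-binding lectin, had levels of 3.20, 3.4 and 3.63 with triptolide, against 3.19, 3.27 and 3.38 with arthritis. It had no low replicate 2 and differed by 0.13 (SE 0.17).

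F13a1, which encodes the coagulation factor XIII A chain made by monocytes and tissue macrophages, had the largest negative difference and the smallest unadjusted p among the members. Its probe lies on rn4 at chr17:34260252-34260311 in ascending order.
F13a1: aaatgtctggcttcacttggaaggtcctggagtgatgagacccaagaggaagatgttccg
Its levels were -1.49, -1.65 and -0.75 with triptolide, against -0.52, -0.97 and -0.40 with arthritis. Triptolide 1 and 2 were below all arthritis arrays and triptolide 3 lay between arthritis 2 and arthritis 1. The difference was -0.67 (0.63-fold, SE 0.29, 95% interval -1.37 to 0.034) with an unadjusted p of 0.0589 and an adjusted p of 0.994. With each array left out in turn it ranged from -0.94 to -0.49. It was smaller with normexp background correction, at -0.347, and with array weights, at -0.39.

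Ms4a7, a membrane protein of macrophages, was read by a pair of overlapping probes. Their positions on rn4 are chr1:213842090-213842149 and chr1:213842131-213842190, both in descending order, and the 19 bases they share are in capitals.
Ms4a7, first probe: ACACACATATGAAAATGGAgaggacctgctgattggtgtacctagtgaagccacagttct
Ms4a7, second probe: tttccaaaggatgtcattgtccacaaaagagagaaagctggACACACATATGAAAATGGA
The first probe had levels of 2.64, 0.85 and 2.60 with triptolide, against 1.55, 0.91 and 2.00 with arthritis. Triptolide 1 and 3 were above all arthritis arrays and triptolide 2 was the lowest of the 6. The difference was 0.55 (SE 0.55) on the first probe and 0.53 (SE 0.51) on the second, so both probes gave the same size of difference. In all, 6 members had a second tested probe, and in 6 of 6 it lay on the same side of 0 as the brighter one. The 6 include the Tyrobp probe for the opposite strand. All were read on the same arrays, so the shared signs are not independent support for a difference.

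Aif1, an actin-bundling protein of activated macrophages, had levels of 6.74, 5.43 and 6.53 with triptolide, against 5.84, 5.40 and 6.08 with arthritis. Triptolide 1 and 3 were again the highest arrays, and the difference was 0.46 (SE 0.38). Emr1, which encodes the F4/80 antigen, had levels of 1.80, 1.35 and 2.77 with triptolide, against 1.91, 1.17 and 2.53 with arthritis, a difference of 0.11 (SE 0.48). Laptm5, a lysosomal membrane protein of leukocytes, had levels of 7.90, 7.74 and 8.09 with triptolide, against 7.95, 7.10 and 7.94 with arthritis, a difference of 0.25 (SE 0.27). Arthritis 2 was the lowest array for both.

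Lyz2, which encodes lysozyme, had levels of 9.30, 7.56 and 9.03 with triptolide, against 8.91, 8.46 and 9.0 with arthritis, a difference of -0.16 (SE 0.47). Gpnmb, a glycoprotein of lipid-laden macrophages, had levels of 9.0, 7.84 and 8.81 with triptolide, against 8.95, 8.25 and 9.13 with arthritis, a difference of -0.22 (SE 0.38). Both had their lowest value in triptolide 2, and without that array they differed by 0.38 and 0.13. Lgals3, the galectin of activated macrophages, was the steadiest member, with levels of 9.25, 9.06 and 8.99 with triptolide, against 9.16, 9.02 and 9.02 with arthritis. Its pooled SD was 0.11, smaller than that of all but 6.5% of tested probes, and its difference was 0.030 (SE 0.15, 95% interval -0.33 to 0.39). Macrophages are not the only cells that make Lgals3. For Marco, levels were -6.64, -6.70 and -7.07 with triptolide, against -7.16, -7.03 and -6.13 with arthritis, all not well above background, so no fold is given.

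The members were also set against each other as resident genes (Vsig4, Folr2, Cd163 and Timd4) and recruited or activated genes. Of 9 recruited or activated genes 7 were tested: Itgam, Itgb2, Fcgr1a, Fcgr3a, Trem2, Gpnmb and Lgals3. Resident genes had a median difference of 0.04, with 2 above 0 and 2 below, and recruited genes one of 0.35, with 6 above and 1 below. On each array the mean centred level of the resident genes minus that of the recruited genes was -0.19, -0.41 and 0.27 with triptolide, against 0.30, -0.41 and 0.45 with arthritis. The groups overlapped, and the mean difference was -0.221. Without Vsig4, an alternative chosen after seeing the data, the values were -0.48, 0.12 and -0.03 with triptolide, against 0.04, 0.17 and 0.18 with arthritis, and the difference was -0.261. With all 4 resident genes and any of the 6 arrays left out, the difference ranged from -0.483 to -0.052. No p-value is given for these means, since the members were chosen with earlier results known.

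**Figure D3:**
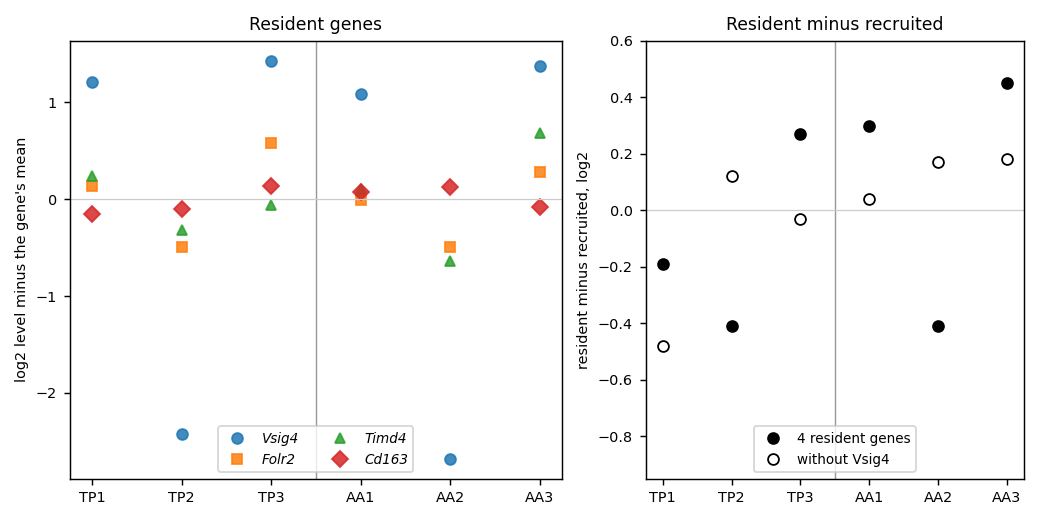
Left, the 4 resident genes on each array as log2 minus the gene's mean, with triptolide (TP) left of arthritis (AA). Right, resident minus recruited mean per array with all 4 resident genes (filled) and without Vsig4 (open). Vsig4 drops on TP2 and AA2 while Cd163 stays near 0.

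To take out what the members shared on an array, each array was also scaled to the median of the tested members, an alternative chosen after seeing the data. This puts the members' own median near 0 by construction, at 0.007, and shifts the median of all probes to -0.12. The scaling also takes array variation shared by the members out of them and puts it into the other probes. Groups that did not overlap fell from 8.64% to 3.39% of all tested probes. Counts of members and of all probes on this scale therefore cannot be set against each other. On this scale 4 members had groups that did not overlap. Itgam and Tyrobp were above arthritis, with differences of 0.20 and 0.058, and F13a1 and Gpnmb were below it, at -0.81 and -0.37. By limma 0 members passed an adjusted p of 0.05 and 1, F13a1, had an unadjusted p under 0.05 (0.0292), while 273 probes, or 1.06%, had an unadjusted p under 0.05. These p-values depend on the scale in the same way.

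In 6 related lists of macrophage genes 0 genes passed the adjusted threshold by limma, and 1 gene, Cx3cl1, had an unadjusted p under 0.05, as 3.23% of all tested probes did. Of all tested probes 53.9% had a difference above 0, beside which the counts of genes above 0 in these lists are to be read. Genes of a list were read on the same arrays, so their shared signs are not independent support for a difference. Counts with an array left out are not given for these lists. Subunits of the phagocyte oxidase, which makes superoxide, were above 0 in 6 of 6 genes, with a median of 0.29. Cyba, the small membrane subunit, had levels of 6.15, 5.57 and 6.35 with triptolide, against 5.80, 5.15 and 6.0 with arthritis, a difference of 0.37 (SE 0.30). Kinases, phosphatases and adaptors downstream of ITAMs and the SIRP receptor were above 0 in 13 of 14 genes, with a median of 0.28. Ptpn6, the phosphatase SHP-1, differed by 0.39 (SE 0.36). For 13 of these 14 genes, and for 6 of 6 oxidase genes, triptolide 2 and arthritis 2 were the lowest pair of arrays.

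Transcription factors of macrophages were above 0 in 10 of 12 tested genes, with a median of 0.17. Klf4, which restrains inflammatory activation, was the 1 whose groups did not overlap, with levels of 3.93, 3.39 and 3.97 with triptolide, against 4.08, 4.01 and 4.05 with arthritis (difference -0.29, SE 0.20). Of all tested probes 3.87% had triptolide clear below arthritis. Chemokines and chemokine receptors of monocyte recruitment were above 0 in 8 of 10 genes, with a median of 0.15. Cx3cl1, the membrane-bound chemokine that tethers monocytes, had levels of 3.68, 3.22 and 3.42 with triptolide, against 2.83, 2.67 and 3.02 with arthritis. All 3 triptolide arrays lay above all 3 arthritis arrays, as they did for 4.77% of all tested probes. Its difference was 0.60 (1.52-fold, SE 0.19), with an unadjusted p of 0.0166 and an adjusted p of 0.994. Ccl5, a chemokine of T cells and macrophages, differed by -0.84 (SE 0.45), and Ccl2, the main monocyte attractant, by 0.18 (SE 0.52).

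Other macrophage genes were above 0 in 20 of 25 tested genes, with a median of 0.18. Mpeg1, a pore-forming protein of phagocytes, had levels of 1.49, 0.43 and 1.03 with triptolide, against 0.29, -0.48 and 0.55 with arthritis. Only triptolide 2 lay within the arthritis range, and the difference was 0.87 (1.82-fold, SE 0.37, adjusted p = 0.994). Lyve1, found on resident macrophages and on lymphatic vessels, had levels of 2.35, 1.19 and 2.82 with triptolide, against 2.95, 2.76 and 3.04 with arthritis. Triptolide 1 and 2 were below all arthritis arrays, and the difference was -0.80 (SE 0.41). Products of activated macrophages were above 0 in 9 of 12 genes, with a median of 0.39 and a range of -0.33 to 2.39. The gene at 2.39 was not among those named by smallest p or by brightness. Its groups overlapped, as in all 12 genes. The mean centred level of the list was 1.02, -0.52 and 0.22 with triptolide, against -0.21, -0.59 and 0.08 with arthritis. Triptolide 1 was thus the high array. Chi3l1, a secreted chitinase-like protein, had levels of 2.37, 1.33 and 2.32 with triptolide, against 0.74, 0.52 and 1.83 with arthritis, a difference of 0.98 (1.97-fold, SE 0.44). Hmox1, which breaks down haem, differed by 0.51 (SE 0.34).

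Markers of cells related to macrophages, or sampled with them, also had 0 genes past the adjusted threshold by limma, and 1, the mast cell gene Kit, had an unadjusted p under 0.05, as 3.23% of all tested probes did. Osteoclast genes, which mark the bone-resorbing relatives of macrophages, had a median difference of 0.09 over 4 tested genes. Ctsk, the bone-degrading cathepsin K, had levels of 5.42, 5.67 and 5.61 with triptolide, against 5.84, 4.99 and 5.55 with arthritis, a difference of 0.11 (SE 0.24). Dendritic cell genes had a median of 0.18 over 5 tested genes, and mast cell genes one of -0.24 over 9, 8 of them below 0. Kit, a growth factor receptor, was the mast cell gene above 0, with a difference of 0.74 (SE 0.29). Its probe was dim, at -4.32, -3.39 and -3.48 with triptolide, against -4.36, -4.71 and -4.33 with arthritis. It was well above background on 3 triptolide arrays and 2 arthritis arrays. Synovial fibroblast genes had a median of -0.17 over 14 tested genes. Col3a1, a fibrillar collagen of fibroblasts, had levels of 8.86, 9.06 and 9.06 with triptolide, against 9.67, 9.05 and 9.42 with arthritis, a difference of -0.39 (SE 0.20).

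**Figure D4:**
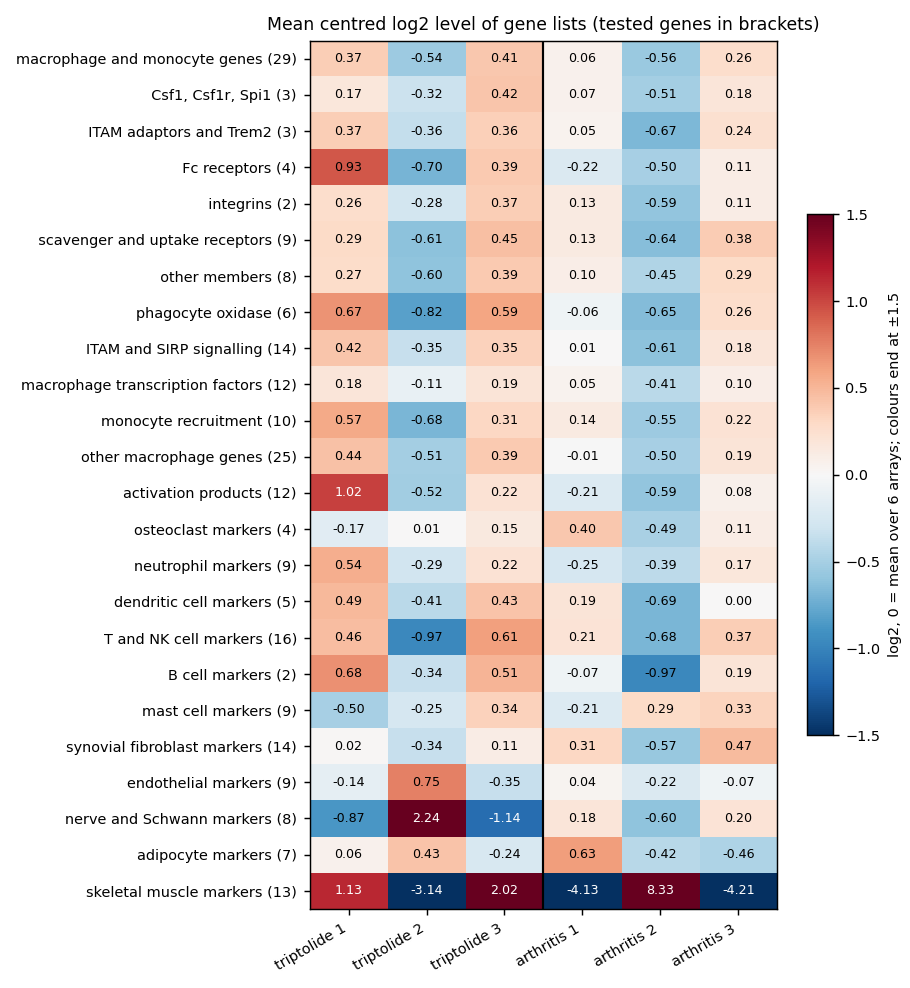
Mean level of each gene list on each array, triptolide columns left of arthritis columns, as log2 minus each gene's mean over the 6 arrays, with the number of tested genes in brackets. The column of replicate 2 is below 0 in both groups for the macrophage lists, while nerve genes peak at 2.24 on triptolide 2 and muscle genes at 8.33 on arthritis 2.

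Macrophage genes have a known upstream regulator in PU.1, and their promoters were searched for its core, GAGGAA, on both strands. Promoters are RefSeq windows on GRCr8, spanning 250 bases upstream and 50 downstream of the first listed start of each gene, and 21 of the 34 members had one. The core was found in 15 of the 21, or 71.4%, against 7563 of 27457 promoters of all genes, or 27.5%. The 15 include Cd5l and Stab1, which had no probe, and Marco, which was not tested. The AP-1 site TGANTCA, on both strands, was in 4 of the 21, or 19.0%, against 7.3% of all promoters. It lay before the start site in Cd68, Gpnmb and Itgax, and after or across it in Trem2. A match of this kind is a description of the sequence and not evidence of binding. For 4 members of different roles the stretch around the core nearest the start site is shown, among cores that lie before it. Each is read along the gene, with the core in capitals on either strand. Cd68 also had a match after or across the start site, which is not shown.
Cd68: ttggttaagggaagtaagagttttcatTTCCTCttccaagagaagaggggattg
Itgam: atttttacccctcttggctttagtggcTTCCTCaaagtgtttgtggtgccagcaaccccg
Lyz2: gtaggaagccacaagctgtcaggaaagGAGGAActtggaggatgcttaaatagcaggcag
Fcgr3a: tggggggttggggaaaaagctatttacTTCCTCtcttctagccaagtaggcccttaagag
They lie at chr10:54882442-54882495 on the minus strand for Cd68, chr1:192089526-192089585 on the plus strand for Itgam, chr7:54798025-54798084 on the minus strand for Lyz2 and chr13:85782555-85782614 on the plus strand for Fcgr3a. From the end of the core to the start site there are 21 bases in Cd68, 33 in Itgam, 40 in Lyz2 and 48 in Fcgr3a. These 4 genes differed by 0.32, 0.35, -0.16 and 0.68 between the groups, and Spi1, which encodes the factor, by 0.28, and none of these passed the test.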

How the data were processed

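Per the labels' protocols, Cy3-labelled cRNA from total RNA was hybridised to 1-colour Agilent arrays. The deposited files hold spot intensity, background-subtracted and spatially detrended within each array by Feature Extraction 10.7.3.1 per the file headers (9.1 per the submitters' processing notes), with nothing normalized between arrays; probe coordinates are on rn4. Control and outlier spots were left out here, log2 intensity was set relative to each array's 75th percentile over non-control spots, and spots of a probe were averaged. Probes well above background on at least 3 of 6 arrays were tested with limma 3.58.1 in R 4.3.3 (lmFit, eBayes, Benjamini-Hochberg). The brightest probe stands for a gene. The number of arrays, 3 per group, limits the precision. On simulated data with the median spread of the 25772 probes, 81 of 100 probes set to a log2 change of 1 and 100 of 100 set to 2 were called; that spread was 0.28, and the members' own median spread of 0.47 is larger, so these rates do not apply to them. The members and lists were chosen with earlier results of these data known. Named are all members and, of each other list, the 3 genes with the smallest unadjusted p and the 2 brightest; Prg4 was added. Values are given for some of these genes only. Alternatives changed normalization, background, filter, probes, slide, weights and samples. Replicate numbers were checked as pairs: deviations of same-numbered samples correlated at -0.16, -0.13 and 0.00 over probes, so they were not treated as pairs. A correlation over all probes does not settle this for the members, of which 24 of 29 had both replicate 2 arrays lowest. Protein sequences were not used here.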

Additional observations from a re-analysis of the deposited data

How the results depend on the processing

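The muscle mean averaged near 0 in both groups, so as a covariate it could not move a difference. No member passed the adjusted threshold under any of the alternatives run. Over all probes 0 passed in each, except 1 under array weights and 24 when both replicate 2 arrays were left out, and the cause was not tested. With the replicate block the members' median difference was 0.15, 0 probes passed and 1064 had an unadjusted p under 0.05, against 833 without it. The members' median was 0.19 with quantile normalization, 0.168 with normexp, 0.252 with array weights, 0.213 without both replicate 2 arrays, and 0.406 when slide was a block or slide 1 was taken alone, where triptolide 1 alone stands for triptolide. It was 0.437 without triptolide 2, 0.379 without arthritis 3, 0.227 without arthritis 1, 0.073 without triptolide 1, 0.021 without triptolide 3 and -0.041 without arthritis 2, where 10 of 29 members changed sign. Members with an unadjusted p under 0.05 by limma numbered 2 with array weights. They numbered 1, F13a1, with the replicate block, without arthritis 2 and without triptolide 3. Counts for the slide settings are not given, since triptolide 1 alone stands for triptolide there. Resident minus recruited was below 0 in every alternative run, from -0.483 without arthritis 2 to -0.052 without arthritis 3. The replicate block, the muscle covariate and the members' median as the scale could not move it from -0.221. All alternatives reuse the same arrays, so the shared sign is not independent support. On single arrays the value ran from -0.41 to 0.27 with triptolide and from -0.41 to 0.45 with arthritis. Unadjusted calls ranged from 273 with the members' median as the scale to 4343 with array weights, and were 2879 without both replicate 2 arrays and 1656 without triptolide 2. The whole range rests on 3 arrays per group.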
